A study of Mus musculus with 6 samples.

Results

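Described here are 33 genes of glucose use and the hypoxia response in the embryonic mouse kidney, chosen by name from the 22394 genes of the table the authors deposited. They comprise 17 glycolytic enzyme genes, 4 carriers of glucose or lactate, 3 regulators that set where the carbon goes, 6 further targets of the hypoxia response, and 3 subunits of the hypoxia-inducible factors (HIF). All 33 had enough reads to be tested, among 16933 genes that did. The libraries were made from messenger RNA of whole kidneys at E13.5, the embryonic day given in the labels. The 3 mutants were Foxd1Cre;Ptch1 (flox/-): they carried Cre recombinase under the control of Foxd1, a gene of the renal stromal progenitors, with 1 floxed and 1 null allele of Ptch1. The 3 controls were Ptch1 (flox/+), with 1 floxed and 1 wild-type allele. The mutants therefore differ from the controls by the Cre transgene, by a null allele in every cell, and by recombination of the floxed allele in cells with a history of Foxd1 expression. Every kidney carries at least 1 floxed allele. The labels give neither litter nor day, and name no batch.

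Glycolysis splits glucose into pyruvate in the cytosol, and lactate dehydrogenase then turns pyruvate into lactate when the mitochondria do not take it up. When oxygen is short, the HIF alpha proteins escape degradation, pair with Arnt and bind a short core sequence beside their target genes, among them most genes of glycolysis. Embryonic tissues develop at low oxygen and rely heavily on glycolysis, and in the kidney HIF-1 alpha (Hif1a) is known mostly from epithelial cells and HIF-2 alpha (Epas1) from endothelial and interstitial cells.

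Depth ranged between 13261588 and 47847925 reads in the mutant libraries, against 21644399 to 25416896 reads in the control libraries. Ptch1, the Hedgehog receptor and itself a target of the pathway, had 23.5, 35.8 and 29.8 FPKM (reads scaled to gene length and library depth) in mutants 1 to 3, against 8.26, 7.91 and 7.60 FPKM in controls 1 to 3. Ptch1 was thus higher in every mutant, and these gene-level values cannot tell if the floxed part was lost. Control 2 stood apart from the other 5 libraries: it lay at 75.8 on the first principal component, which held 39.4% of the variance, while the others lay between -24.6 and 8.49. Mitochondrially encoded genes took 0.367% of the reads in control 2 and between 1.21% and 2.12% in the others. Controls 1 and 3 showed the Xist RNA of female embryos (72.9 and 53.3 FPKM) and almost no Ddx3y (0.0598 and 0.0177 FPKM), while the 3 mutants and control 2 had between 13.9 and 17.8 FPKM of Ddx3y, a gene of the Y chromosome. Mutant 3 had Xist at 6.19 FPKM beside its Ddx3y, while the other 3 libraries with Ddx3y had at most 0.206 FPKM of Xist. Sex therefore differs between the groups in part, and its part in the results was not tested. Without control 2, only the controls with Xist and almost no Ddx3y remain, while every mutant has Ddx3y. In that fit, sex and genotype cannot be told apart. Kidney progenitor markers such as Six2, Pax2 and Wnt11 were present in every library, with 8 of them summing to between 364 and 405 FPKM in mutants and between 322 and 476 FPKM in controls. Control 2 had the 322 FPKM, while controls 1 and 3, at 476 and 449 FPKM, lay above all mutants. The median log2 fold change of the 8 was -0.16, with 2 lower at an unadjusted p under 0.05 by limma. Without control 2 it was -0.42, with 5 lower at that level, and limma called none in either fit. Results are given with control 2 and without it.

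None of the 33 genes was called between mutants and controls by limma, in either direction, at an adjusted p under 0.05, where 0.307% of all genes tested were called. Adjusted p-values of the 33 genes ranged from 0.434 to 0.983 by limma (a moderated linear model on log2 of the normalized count + 1, adjusted over all genes tested by Benjamini-Hochberg). At an unadjusted p under 0.05 stood 1 member, Pgam1, against 9.63% of all genes. The authors' deposited table called 1 member higher, Slc2a1, and 4 lower, Pgk1, Pgam1, Ldha and Hif1a. Over the whole of the authors' deposited table, 3.07% of genes were called higher and 1.54% lower. The groups did not overlap for 1 member that was higher in every mutant, Ankrd37, where 7.57% of all genes were, and for 2 that were lower, Hk1 and Pgam1, where 9.09% were. The log2 fold change was negative for 22 members and positive for 11, with a median of -0.13 against -0.0074 over all genes tested. By role, the median log2 fold change was -0.21 for the enzymes, 0.0066 for the carriers, -0.27 for the flux regulators, 0.041 for the other hypoxia targets and -0.18 for the HIF subunits. In whole kidneys, fewer cells of a type and less RNA per cell cannot be told apart.

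**Figure D1:**
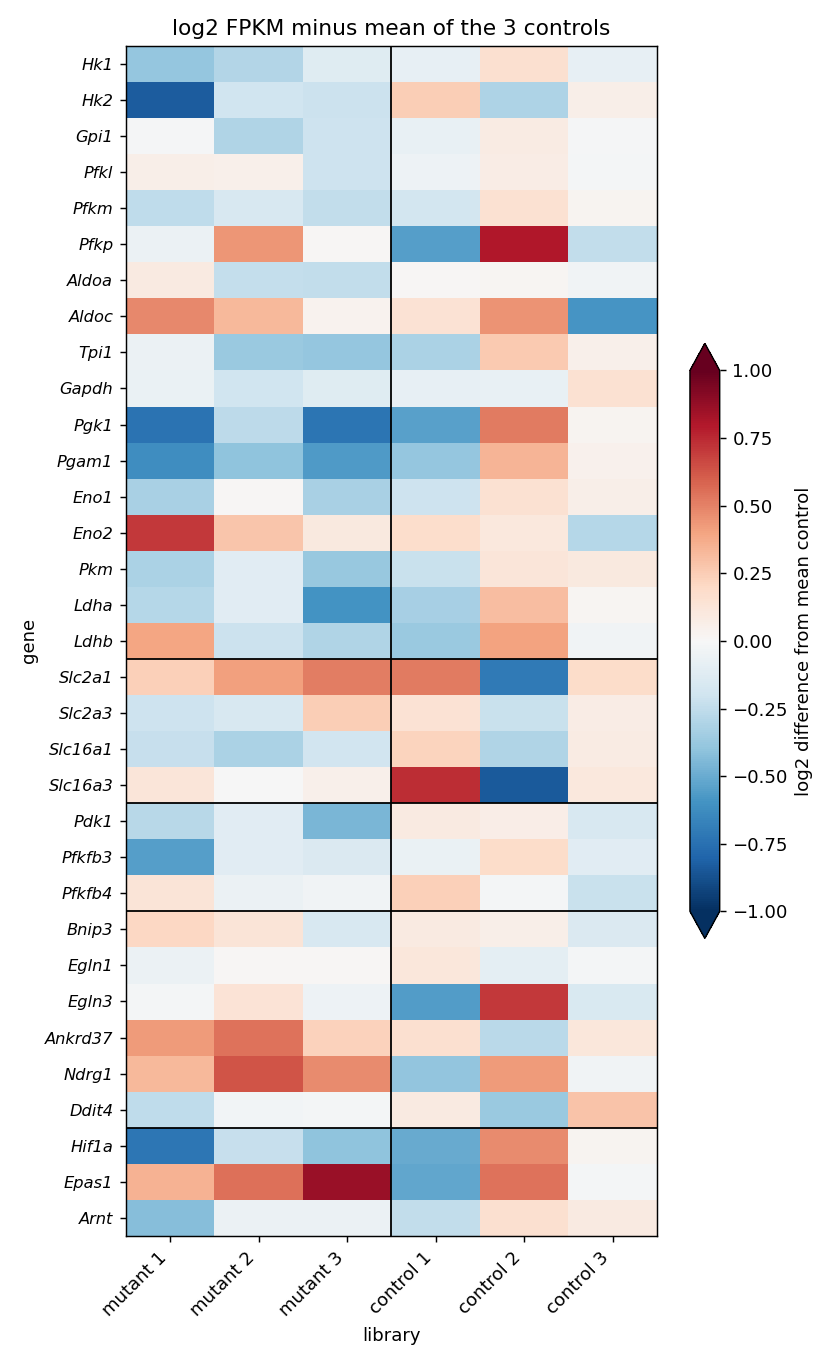
Level of each of the 33 genes (rows, ordered by role and split by lines) in each library (columns, mutants left of controls), as the log2 difference from the mean of the 3 controls. Control 2 holds the highest level of 16 genes and the lowest of 6, so that its column is the most strongly coloured of the controls.

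Control 2 had the highest level of any library for 16 of the 33 genes, including 12 of the 17 enzymes, and the lowest for 6, none of them an enzyme. Over all genes tested, control 2 was the highest library for 30.6% and the lowest for 28.0%. Without control 2, no member was called, and the median log2 fold change of the members was -0.14, against -0.016 over all genes. In that fit, 3 members were higher at an unadjusted p under 0.05 by limma, Epas1, Ndrg1 and Pfkp. Another 3 were lower at that level, Slc16a1, Hk2 and Pgam1. Of all 16933 genes tested, 1086 were higher and 610 lower at that level. By role, the medians without control 2 were -0.14 for the enzymes, -0.26 for the carriers, -0.18 for the flux regulators, 0.18 for the other hypoxia targets and -0.10 for the HIF subunits, so the carriers turned negative. The spread was larger among controls than among mutants for 23 of the 33 genes, with a median SD per gene of 0.17 among mutants and 0.25 among controls on the log2 scale. Standard errors of the log2 fold change lay between 0.11 and 0.34.

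Levels of the 33 genes spanned a wide range, with mean levels between 1.05 and 576 FPKM. Means over 100 FPKM were found for 9 genes, all of them enzymes, and means under 10 FPKM for 11. The gene with the fewest reads was Aldoc, with between 42 and 126 reads in a library.

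**Figure D2:**
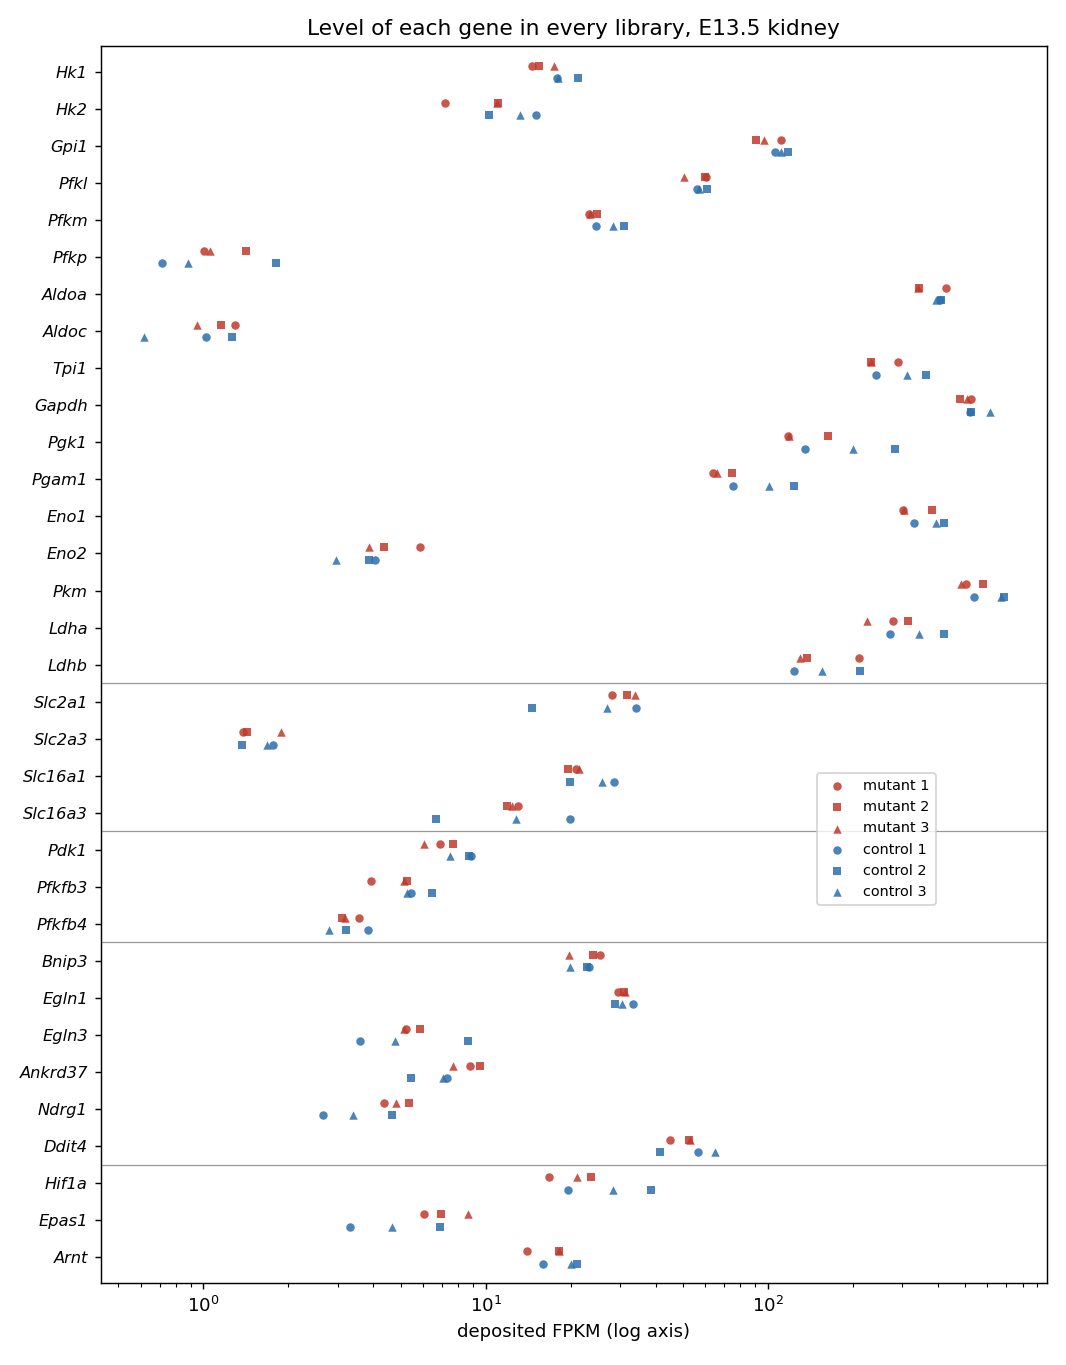
Deposited FPKM (log axis) of each gene in every library, with mutants in red drawn just above controls in blue. The most abundant enzymes lie over 100 FPKM, and the groups overlap for all genes except Hk1, Pgam1 and Ankrd37.

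The enzyme genes called lower in mutants by the authors' deposited table were Pgk1, Pgam1 and Ldha. Pgk1 (ENSMUSG00000062070.12, chrX:106187100-106203699, mm10) encodes phosphoglycerate kinase, the first enzyme of the pathway to make ATP. Pgam1 (ENSMUSG00000011752.6, chr19:41911923-41918660) encodes phosphoglycerate mutase, which acts on the product of Pgk1. Ldha (ENSMUSG00000063229.15, chr7:46841475-46855627) encodes the A subunit of lactate dehydrogenase, which makes lactate. Shown here are the 150 bases upstream of a transcription start of these 3 genes and of Hif1a, the 4 members that the deposited table called lower, because all 3 enzymes are textbook targets of HIF. The sequences are RefSeq's for GRCm38.p6 (the same assembly as mm10), 5′ to 3′ on the plus strand, which is the strand of all 4 genes. Capitals mark the core of the HIF binding site, ACGTG or GCGTG, on either strand, so that it may read CACGT or CACGC, and overlapping matches to both strands read CACGTG. Ldha has 2 starts in RefSeq. The 150 bases upstream of the other start held 1 match, against 5 in those shown.
Pgk1, chrX:106186950-106187099: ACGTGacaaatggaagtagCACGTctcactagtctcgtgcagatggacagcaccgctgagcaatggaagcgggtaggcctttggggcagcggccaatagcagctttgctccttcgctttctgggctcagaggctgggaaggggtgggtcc
Pgam1, chr19:41911721-41911870: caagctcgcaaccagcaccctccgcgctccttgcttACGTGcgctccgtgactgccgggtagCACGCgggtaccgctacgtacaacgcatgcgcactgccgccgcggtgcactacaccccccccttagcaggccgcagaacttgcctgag
Ldha, chr7:46845654-46845803: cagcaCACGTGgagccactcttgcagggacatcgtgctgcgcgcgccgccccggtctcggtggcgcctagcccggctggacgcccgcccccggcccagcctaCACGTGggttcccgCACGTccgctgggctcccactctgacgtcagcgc
Hif1a, chr12:73907717-73907866: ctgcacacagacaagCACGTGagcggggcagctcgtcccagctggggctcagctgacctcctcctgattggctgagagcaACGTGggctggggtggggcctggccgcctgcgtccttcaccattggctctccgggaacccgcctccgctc

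Over the full RefSeq window, from 250 bases before to 50 after each start, 30 of the 33 genes had at least 1 entry, and 27 of these 30 (90.0%) held the core on either strand in at least 1 window. Among all 27025 genes of the promoter table, 12628 (46.7%) did. Counted by window, 81.4% of 43 member windows and 43.8% of all windows held the core. Slc2a1, called higher in the deposited table, has the core in its window as well. A match to these letters is a description of the sequence and not of a bound site, and members were chosen in part as textbook HIF targets. The genes of the promoter table were not matched to the members by base content or by expression. Epas1, Ndrg1 and Slc2a3 had no entry.

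Pgk1 had 118, 164 and 119 FPKM in mutants 1 to 3, against 135, 282 and 200 FPKM in controls 1 to 3. The mutants were low and control 2 was the highest, but control 1 lay between the mutants, so the groups overlap. The means were 134 ± 26.4 FPKM in mutants and 206 ± 73.4 FPKM in controls (SD, n = 3 each). By limma the log2 fold change was -0.58 (standard error 0.26, adjusted p = 0.530). Without control 2 the log2 fold change was -0.32, with an adjusted p of 0.703 by limma. The authors' deposited table gave Pgk1 a log2 fold change of -0.89 with an adjusted p of 0.000362.

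Pgam1 had 63.9, 74.3 and 66.2 FPKM in the mutants, against 75.2, 124 and 101 FPKM in controls 1 to 3. Every mutant lay below every control, although mutant 2 and control 1 nearly met. It averaged 68.1 ± 5.50 FPKM in mutants and 100.1 ± 24.3 FPKM in controls (SD, n = 3 each), with a log2 fold change of -0.53 (standard error 0.18). By limma the unadjusted p was 0.0186, the smallest of the 33 genes, and the adjusted p was 0.434. For Pgam1 the authors' deposited table gave -0.74 on the log2 scale, with an adjusted p of 0.00184. Leaving out control 2 moved the limma log2 fold change to -0.36.

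Ldha had 279, 313 and 224 FPKM in the mutants, against 270, 420 and 344 FPKM in controls 1 to 3. Mutants 1 and 2 lay above control 1, and control 2 was the highest library. The limma log2 fold change was -0.33 (standard error 0.20, adjusted p = 0.591), and -0.18 without control 2. The authors' deposited table gave -0.55 with an adjusted p of 0.022. Ldhb, the B subunit, which favours the return of lactate to pyruvate, averaged 159 ± 44.1 FPKM in mutants and 164 ± 44.5 FPKM in controls (SD, n = 3 each). Ldhb made up 43.0%, 30.6% and 36.7% of the summed Ldha and Ldhb FPKM in the mutants, against 31.5%, 33.5% and 31.2% in the controls. That share was highest in mutant 1 and lowest in mutant 2, so the mutants span the controls.

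Pkm, the pyruvate kinase gene of the last step of glycolysis, was the most abundant of the 33 genes. It had 503, 579 and 483 FPKM in the mutants, against 537, 684 and 672 FPKM in the controls, with a log2 fold change of -0.27 (standard error 0.18, adjusted p = 0.615 by limma). Mutant 2 lay above control 1, and the other 2 mutants lay below all controls. Gapdh, glyceraldehyde-3-phosphate dehydrogenase and a common reference gene, had 526, 480 and 506 FPKM in the mutants, against 521, 524 and 614 FPKM in the controls. Mutant 1 lay above controls 1 and 2, and the log2 fold change was -0.13 (standard error 0.17, adjusted p = 0.781 by limma).

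Hk1, the hexokinase that traps glucose in the cell in most tissues, had 14.6, 15.5 and 17.5 FPKM in the mutants, against 17.96, 21.3 and 18.01 FPKM in the controls. All 3 mutants lay below all 3 controls, with mutant 3 just under controls 1 and 3; Hk1 is described in full because of this, chosen after its values were seen. Its log2 fold change was -0.27 (standard error 0.13, adjusted p = 0.542 by limma). Hk2, the hexokinase induced by hypoxia and growth signals, averaged 9.71 ± 2.21 FPKM in mutants and 12.9 ± 2.43 FPKM in controls (SD, n = 3 each). Its lowest library was mutant 1, and control 2 lay below mutants 2 and 3.

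Of the 17 enzymes, 14 had a negative log2 fold change, and 12 without control 2. The 3 that were positive, Pfkp, Aldoc and Eno2, are the minor forms of their steps in this tissue. Pfkp averaged 1.16 FPKM in mutants and 1.14 FPKM in controls, Aldoc 1.13 and 0.964 FPKM, and Eno2 4.69 and 3.63 FPKM. Aldoc and Eno2 are the brain forms of aldolase and enolase. A list of 10 neuronal and glial markers summed to between 9.06 and 23.0 FPKM in mutants, against 7.20 to 12.1 FPKM in controls, with none at 0 and none called by limma. Of the 9 tested, 7 had a positive log2 fold change, with a median of 0.80, or 0.49 without control 2. The authors' deposited table called 3 of them higher, where it called 3.07% of all its genes. The part of these cells in the Aldoc and Eno2 levels was not tested.

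The levels of the other enzymes overlapped between the groups. Triosephosphate isomerase (Tpi1) averaged 251 ± 33.5 FPKM in mutants and 306 ± 60.3 FPKM in controls (SD, n = 3 each). Aldoa, the main aldolase, averaged 371 FPKM in mutants and 404 FPKM in controls, Eno1 329 and 381 FPKM, and phosphoglucose isomerase (Gpi1) 99.4 and 112 FPKM. Pfkl, the liver-type phosphofructokinase, averaged 56.9 FPKM in mutants and 58.0 FPKM in controls, and Pfkm, the muscle type, 23.9 and 28.0 FPKM. Eno1 has a near-identical retrogene in the table, Eno1b, and reads that match both could have been split between them or left uncounted. Eno1b had 96.8, 51.5 and 47.7 FPKM in the mutants, against 95.9, 95.2 and 109 FPKM in the controls. Mutant 1 was at the level of the controls, and mutants 2 and 3 were lower. The summed FPKM of Eno1 and Eno1b was 399, 434 and 350 in the mutants, against 424, 516 and 503 in the controls. Processed copies of Pgk1, Pgam1, Ldha and Gapdh that the table lists did not exceed 2.503 FPKM.

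**Figure D3:**
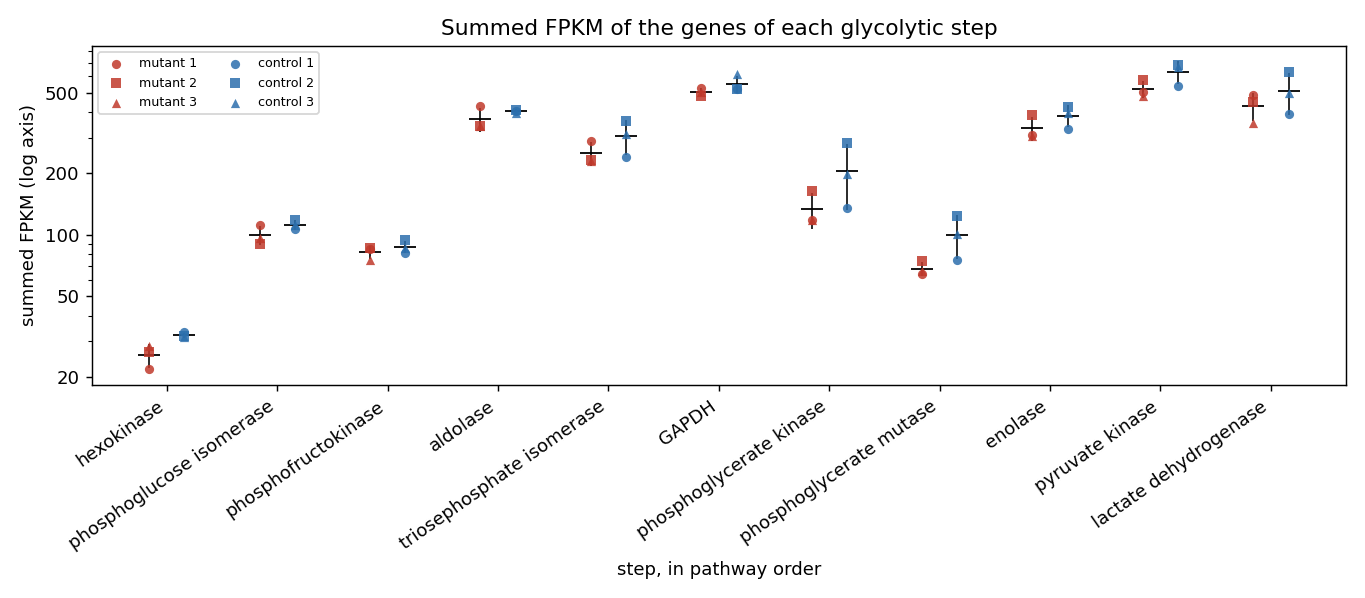
Summed FPKM (log axis) of the member genes of each glycolytic step, in pathway order, for each mutant (red) and control (blue) library, with the mean ± SD of each group as black lines. Hexokinase is the lowest step, at a mean of 28.8 FPKM, and pyruvate kinase the highest, at 576 FPKM.

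Summed by step over the member genes and averaged over the 6 libraries, the RNA level was lowest at the entry of the pathway and highest at pyruvate kinase. Hexokinase (Hk1 and Hk2) was the lowest of 11 steps, with a mean over the 6 libraries of 28.8 FPKM. Phosphoglycerate mutase came next at 84.1 FPKM and phosphofructokinase at 84.5 FPKM, which do not differ beyond their spread. Pyruvate kinase at 576 FPKM, GAPDH at 529 FPKM and lactate dehydrogenase at 470 FPKM were the 3 highest. Enolase, at 359 FPKM, leaves out 2 genes that are not members. These are Eno1b, at a mean of 65.3 FPKM in mutants and 99.9 FPKM in controls, and Eno3, at a mean of 33.2 FPKM over all libraries. The order of the steps thus holds for the member genes only. In mutants 1 and 3 GAPDH lay above pyruvate kinase, at 526 against 503 FPKM and 506 against 483 FPKM. The hexokinase sum was 21.7, 26.6 and 28.4 FPKM in the mutants, against 33.0, 31.5 and 31.3 FPKM in the controls. Every mutant lay below every control at this step and at phosphoglycerate mutase, and the groups overlap at the other 9 steps. These sums are descriptions, with no test. The 17 enzyme genes together took 0.661%, 0.689% and 0.615% of the summed FPKM of the mutant libraries, against 0.675%, 0.887% and 0.770% of the control libraries. Control 2 had the largest share, and control 1 lay between the mutants.

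Isoforms of a step kept overlapping shares in the mutants and the controls. Hk2 gave between 32.9% and 41.6% of the hexokinase sum in mutants, against 32.5% to 45.6% in controls. Pfkl gave 69.4% ± 2.02 of the phosphofructokinase sum in mutants and 66.7% ± 1.99 in controls (SD, n = 3 each). Pfkm gave 29.2% in mutants and 32.02% in controls. Eno2 gave 1.43% of the enolase sum in mutants and 0.959% in controls, and Aldoc gave 0.304% of the aldolase sum in mutants and 0.237% in controls. A list of 10 skeletal muscle markers, with Ckm at 0 in some libraries, summed to between 21.9 and 34.2 FPKM in mutants, against 58.8 to 97.8 FPKM in controls. Limma called 4 of the 9 tested lower, where it called 15 of all 16933 genes tested lower. The authors' deposited table called 7 of the 9 lower, where it called 1.54% of all its genes. The part of skeletal muscle in the level of Pfkm was not tested.

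Slc2a1 (ENSMUSG00000028645.11, chr4:119108711-119137983) encodes GLUT1, the widespread glucose carrier and a target of HIF. It had 28.0, 31.6 and 33.9 FPKM in the mutants, against 34.1, 14.5 and 27.0 FPKM in controls 1 to 3. Control 1 was the highest of the 6 libraries and control 2 the lowest, so the controls span the mutants. The means were 31.2 ± 2.99 FPKM in mutants and 25.2 ± 9.89 FPKM in controls (SD, n = 3 each). The limma log2 fold change was 0.39 (standard error 0.28, adjusted p = 0.629), and 0.03 without control 2 (adjusted p = 0.965 by limma). The authors' deposited table gave Slc2a1 a log2 fold change of 0.72 with an adjusted p of 0.0178.

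Slc16a1, the lactate carrier MCT1, had 20.8, 19.7 and 21.4 FPKM in the mutants, against 28.6, 19.9 and 25.9 FPKM in the controls. Controls 1 and 3 lay above all mutants, and control 2 lay among them. Its log2 fold change was -0.25 (standard error 0.15, adjusted p = 0.592 by limma), and -0.40 without control 2 (adjusted p = 0.236 by limma). Without control 1 it was -0.14, and the authors' deposited table gave Slc16a1 -0.10 (adjusted p = 0.838). Slc16a3, the lactate exporter MCT4, had 13.0, 11.9 and 12.4 FPKM in the mutants, against 19.98, 6.66 and 12.8 FPKM in the controls. The highest control was 3.00 times the lowest, the widest range among the controls for any of the 33 genes, and the mutants lay close together between them. Slc2a3, the glucose carrier GLUT3 of neurons, averaged 1.56 FPKM in mutants and 1.60 FPKM in controls. Control 2 was the lowest library for 3 of the 4 carriers, Slc2a1, Slc2a3 and Slc16a3, and the highest for none.

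The genes that direct carbon flow were low in both groups. Pdk1 encodes a kinase that shuts off pyruvate dehydrogenase and so keeps pyruvate out of the mitochondria. It had 6.88, 7.67 and 6.07 FPKM in the mutants, against 8.87, 8.70 and 7.46 FPKM in the controls. Mutant 2 lay just above control 3, and the other 2 mutants lay below all controls. Its log2 fold change was -0.28 (standard error 0.14, adjusted p = 0.547 by limma). Pfkfb3 and Pfkfb4, enzymes that set the level of fructose-2,6-bisphosphate, the activator of phosphofructokinase, averaged 4.78 and 3.28 FPKM in mutants, against 5.74 and 3.27 FPKM in controls. Both overlap between the groups.

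Of the 6 further hypoxia targets, Ankrd37, an ankyrin repeat gene induced strongly by HIF, was the 1 member higher in every mutant. It had 8.80, 9.51 and 7.69 FPKM in the mutants, against 7.31, 5.42 and 7.07 FPKM in the controls. Mutant 3 lay close above control 1, and the log2 fold change was 0.40 (standard error 0.20, adjusted p = 0.558 by limma), or 0.26 without control 2 (adjusted p = 0.743 by limma). Ankrd37 was chosen for full description after its values were seen. Its exons overlap those of Ufsp2, which had between 13.9 and 23.2 FPKM, and Lrp2bp. Ndrg1, a stress-response gene induced by hypoxia, had 4.35, 5.37 and 4.83 FPKM in the mutants, against 2.65, 4.67 and 3.39 FPKM in the controls. Mutants 2 and 3 lay above all controls, and mutant 1 lay below control 2. The log2 fold change of Ndrg1 was 0.48 (standard error 0.22, adjusted p = 0.535 by limma), and 0.69 without control 2 (adjusted p = 0.148 by limma). Without control 1 it was 0.28, and the authors' deposited table gave Ndrg1 0.25 (adjusted p = 0.685).

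Ddit4, which encodes the mTORC1 inhibitor REDD1, was the most abundant of the 6. It had 44.97, 52.4 and 52.8 FPKM in the mutants, against 56.8, 41.5 and 65.0 FPKM in the controls. The controls span the mutants, and the log2 fold change was -0.10 (standard error 0.17, adjusted p = 0.836 by limma), or 0.04 without control 3. Egln1, the main prolyl hydroxylase that marks HIF alpha for degradation, averaged 30.5 ± 0.885 FPKM in mutants and 30.8 ± 2.37 FPKM in controls (SD, n = 3 each). Egln3, the prolyl hydroxylase most strongly induced by HIF, averaged 5.40 ± 0.386 FPKM in mutants and 5.69 ± 2.66 FPKM in controls (SD, n = 3 each), with its highest value, 8.68 FPKM, in control 2. Bnip3, a gene of mitochondrial clearance, averaged 23.0 FPKM in mutants and 22.03 FPKM in controls. The groups overlap for these 4 genes. The 6 targets thus gave 4 positive and 2 negative log2 fold changes, and none was called by limma or by the authors' deposited table.

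Hif1a (ENSMUSG00000021109.13, chr12:73901375-73947530) had 16.8, 23.6 and 21.0 FPKM in the mutants, against 19.6, 38.5 and 28.3 FPKM in controls 1 to 3. Controls 2 and 3 lay above all mutants, and control 1 lay between mutants 1 and 3. The means were 20.5 ± 3.42 FPKM in mutants and 28.8 ± 9.45 FPKM in controls (SD, n = 3 each). By limma, Hif1a had a log2 fold change of -0.45 (standard error 0.24, adjusted p = 0.563), and of -0.21 without control 2 (adjusted p = 0.789). The authors' deposited table gave Hif1a -0.72 with an adjusted p of 0.0211. HIF-1 alpha is set mostly by protein degradation, so the level of its RNA does not give its activity.

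Epas1 (ENSMUSG00000024140.9, chr17:86753700-86833410) had 6.04, 6.96 and 8.63 FPKM in the mutants, against 3.31, 6.90 and 4.67 FPKM in controls 1 to 3. Mutants 2 and 3 lay above all controls, and control 2 lay among the mutants. The means were 7.21 ± 1.31 FPKM in mutants and 4.96 ± 1.81 FPKM in controls (SD, n = 3 each). Its log2 fold change of 0.59 (standard error 0.26, adjusted p = 0.519 by limma) was the largest in size of the 33. Without control 2 it was 0.86, with an adjusted p of 0.100 by limma, and without control 1 it was 0.33. The value for Epas1 in the authors' deposited table was 0.32 (adjusted p = 0.571). Arnt, the shared partner of both alpha subunits, averaged 16.8 ± 2.36 FPKM in mutants and 19.0 ± 2.74 FPKM in controls (SD, n = 3 each), with overlapping groups.

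Within each library, Epas1 stood at 35.9%, 29.5% and 41.0% of the Hif1a FPKM in the mutants, against 16.9%, 17.9% and 16.5% in the controls. All 3 mutants lay well above all 3 controls, and control 2 lay with the other controls in this ratio, which does not depend on how a library was scaled. The log2 ratio averaged -1.51 ± 0.24 in mutants and -2.55 ± 0.062 in controls (SD, n = 3 each), a difference of 1.04. The pair was chosen after its values were seen, and so has no test; with 3 libraries against 3, an exact permutation test cannot go below a p of 0.1. A list of 18 markers of endothelial cells, a cell type known for Epas1, had none at 0. They summed to between 460 and 548 FPKM in mutants, against 266 to 305 FPKM in controls. All 18 had a positive log2 fold change. Limma called 4 of them higher, where it called 37 of all 16933 genes tested higher. The authors' deposited table called 13 of them higher, where it called 3.07% of all its genes. Set against the endothelial sum, Epas1 stood at 1.25%, 1.51% and 1.57% in the mutants, against 1.08%, 2.596% and 1.63% in the controls. Here the groups overlap, and the controls span the mutants. The part of the endothelial cells in the ratio of Epas1 to Hif1a was not tested.

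**Figure D4:**
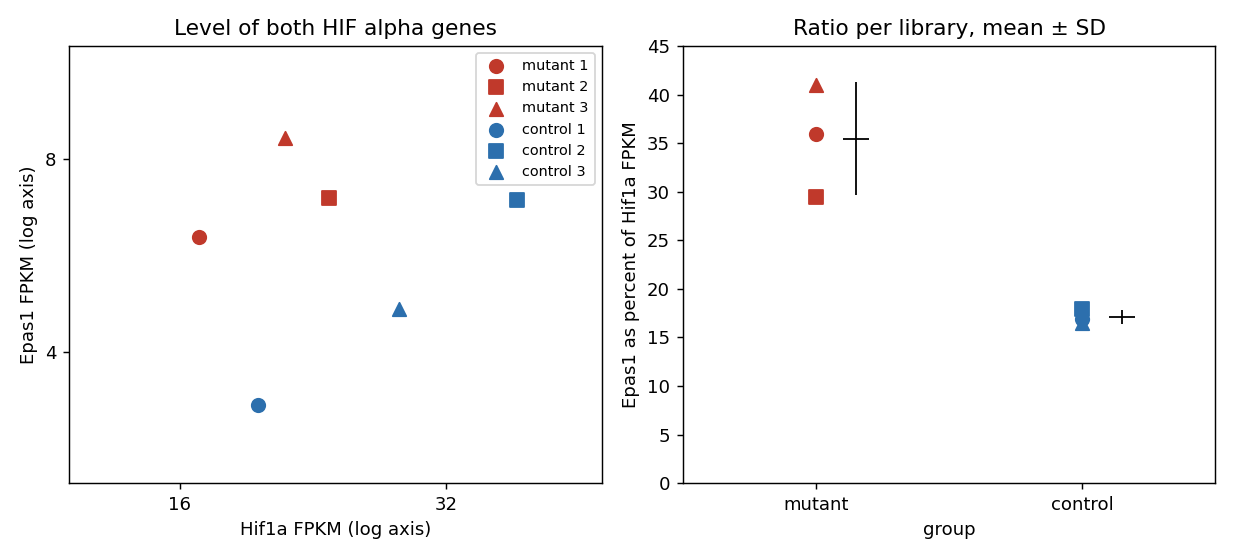
Left, Epas1 FPKM against Hif1a FPKM (both log axes) in each library. Right, Epas1 as a percent of Hif1a FPKM in each library (points), with the mean ± SD of each group (lines beside them). The 3 mutants lie between 29.5% and 41.0%, and the 3 controls between 16.5% and 17.9%.

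The authors' deposited table called 5 members where limma called none. Across the 9081 genes with at least 300 normalized counts in every library, the deposited log2 fold change was a weighted sum of the log2 values of the libraries that explained 99.9% of its variance. The weights were 0.29, 0.28 and 0.44 for mutants 1 to 3, against 0.0049, -0.57 and -0.44 for controls 1 to 3. Control 1 thus carried almost no weight in the authors' deposited table, and control 2 carried the most among controls. A plain difference of the group means explained 82.6%. A comparison in which mutants 1 and 2 share a block with control 2, mutant 3 shares one with control 3 and control 1 stands alone has nearly these weights; the terms the authors fitted are not given in the sources used here. Control 1 was the control nearest to the mutants for Pgk1, Pgam1, Ldha and Hif1a, and control 2 the farthest for these 4 and for Slc2a1. With such blocks, limma gave Pgk1 a log2 fold change of -0.90 (adjusted p = 0.051), Pgam1 -0.75 (adjusted p = 0.052), Ldha -0.56 (adjusted p = 0.133), Hif1a -0.73 (adjusted p = 0.104) and Slc2a1 0.73 (adjusted p = 0.092). No member was called with them either. For Pgk1 the authors' deposited table gave -0.89 (standard error 0.19), and limma with these blocks -0.90 (standard error 0.18). The adjusted p-values still differed, at 0.000362 in the authors' deposited table and 0.051 by limma. The source of that gap in adjusted p was not tested. Leaving out control 1 in place of control 2 gave limma log2 fold changes of -0.85 for Pgk1, -0.72 for Pgam1, -0.50 for Ldha, -0.70 for Hif1a and 0.65 for Slc2a1.

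**Figure D5:**
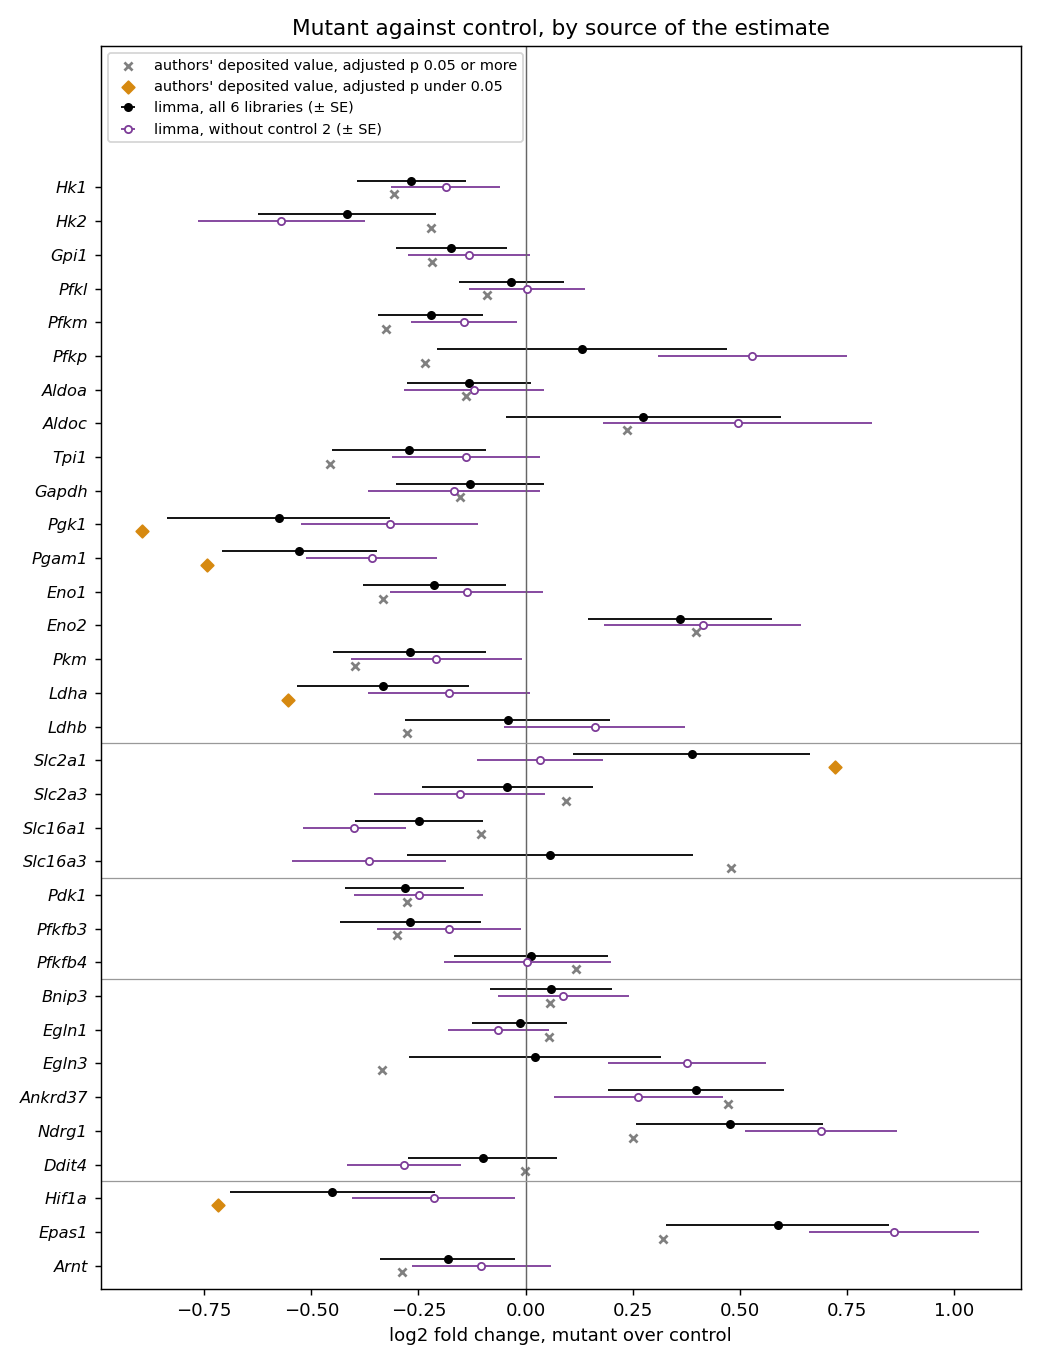
Log2 fold change, mutant over control, of each gene by limma with all 6 libraries and without control 2 (points ± standard error), and as given in the authors' deposited table (diamonds where its adjusted p was under 0.05, crosses otherwise). For Pgk1, Pgam1, Ldha, Slc2a1 and Hif1a the deposited value lies farthest from 0 and the value without control 2 nearest to it.

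Genes around the pathway, from lists of textbook members, were not called by limma either. Of 24 further glycolysis and gluconeogenesis genes tested, 12 genes of pyruvate entry into mitochondria, 8 of the pentose phosphate pathway, 29 further hypoxia targets and 11 HIF regulators, limma called none in either direction. At an unadjusted p under 0.05, none was higher, while 1, 1, 0, 2 and 1 genes of these lists were lower, in the same order. Pyruvate entry had 11 of 12 log2 fold changes negative, with a median of -0.18, or -0.066 without control 2, and control 2 was the highest library for 7 of the 12. Dlat, the acetyltransferase subunit of pyruvate dehydrogenase, had 11.4, 12.6 and 12.1 FPKM in the mutants, against 13.0, 23.3 and 15.5 FPKM in the controls, and the authors' deposited table called it lower (-0.71, adjusted p = 0.0214). All 3 mutants lay below all controls, with control 1 close to them. The most abundant gene of this list, Dld, averaged 45.9 FPKM in mutants and 52.4 FPKM in controls.

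The median was -0.093 for the log2 fold changes of the pentose phosphate genes, with 6 of 8 negative, and -0.033 without control 2. In it the authors' deposited table called Prps1, which makes phosphoribosyl pyrophosphate for nucleotides, lower (adjusted p = 0.0183). Prps1 averaged 17.6 ± 0.733 FPKM in mutants and 24.4 ± 7.02 FPKM in controls (SD, n = 3 each), and control 1 lay among the mutants. Taldo1, its most abundant gene, averaged 129 FPKM in mutants and 135 FPKM in controls. The further glycolysis and gluconeogenesis list had a median of 0.15 with 9 of 24 negative, or 0.060 without control 2, and was led by Bsg, the chaperone of the lactate carriers, at 286 FPKM in mutants and 255 FPKM in controls.

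Among the 29 further hypoxia targets the median log2 fold change was -0.052, with 17 negative. Plod1, a collagen lysyl hydroxylase, had 20.03, 21.8 and 26.5 FPKM in the mutants, against 22.6, 8.25 and 19.2 FPKM in controls 1 to 3, and the authors' deposited table called it higher (0.95, adjusted p = 0.00133). Gbe1, the glycogen branching enzyme, averaged 2.84 ± 0.414 FPKM in mutants and 4.46 ± 2.08 FPKM in controls (SD, n = 3 each), and the authors' deposited table called it lower (-0.96, adjusted p = 0.0194). Both genes had their extreme in control 2, at 8.25 FPKM for Plod1 and 6.65 FPKM for Gbe1, and control 1 lay among the mutants for both. Mif, the most abundant gene of this list, averaged 620 FPKM in mutants and 719 FPKM in controls. The HIF regulators had a median of 0.026, and their most abundant gene, Elob, a subunit of the ubiquitin ligase that removes HIF alpha, averaged 454 FPKM in mutants and 405 FPKM in controls.

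Exons of 10 members overlap those of another gene in the table, 9 of them on the opposite strand. The sources used here do not say if the counting was stranded, and reads of such a pair may have been assigned to either gene or left uncounted. The overlap matters most for Pfkp, a gene near 1 FPKM whose neighbour Pitrm1 had between 28.7 and 44.0 FPKM. Red blood cells, which depend on glycolysis, were similar in the range of their 10 markers, which summed to between 1895 and 3829 FPKM in mutants, against 2103 to 3906 FPKM in controls, with none called by limma and Rhag at 0 in some libraries. The 10 macrophage markers summed to between 31.4 and 48.4 FPKM in mutants, against 23.6 to 28.1 FPKM in controls. All 10 had a positive log2 fold change, with a median of 0.69, and 7 were higher at an unadjusted p under 0.05 by limma. None was called by limma or by the authors' deposited table. The part of these cells in the levels of the 33 genes was not tested.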

How the data were processed

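The 6 libraries, 3 per group, were compared from 1 deposited table. For each library the authors deposited FPKM; no header names the unit, which was taken from the values. Per the file headers, other columns give the mean normalized signal, the log2 fold change and its error, a test score, and the raw and adjusted p-value of the authors' comparison. Trim Galore, STAR 2.6.0c, HTSeq 0.6.1p2, DESeq2 and mm10 are named without role in the submitters' processing notes. FPKM times mean normalized signal over mean FPKM removed gene length; 100% of 134364 values then were whole reads to within 1e-06 of the value. Genes with fewer than 10 reads in all are not in the table.

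limma 3.58.1 (R 4.3.3, intensity trend, no covariate) was fitted to log2(normalized count + 1) of genes with at least 10 normalized counts in 3 or more libraries, and p-values were adjusted over all of them by Benjamini-Hochberg. Calls were adjusted p-values under 0.05. The test was checked on simulated data that held no outlying library and only planted changes larger than that of any member. That check does not give the power of the test for changes as small as those of the members. Fold changes on this scale understate the change of low genes. The labels name separate samples but no separate litters, so p-values measure the spread between these samples. The symbol Aldoa has 2 rows; the second, at 1.08 to 2.81 FPKM, was not used. Positions are from GENCODE M21 (GRCm38, the same assembly as mm10).

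The 33 genes, the lists and the naming rule were chosen with earlier results of these data known. Named in full are members called by limma or by the deposited table, the member with the smallest p and the most abundant member of each role, and Gapdh, Pgk1, Ldha, Slc2a1, Hif1a and Epas1; of each list, up to 4 called genes and the most abundant one. Alternatives were other pseudocounts, filters and scalings, library weights, blocks, and leaving out each library.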

Additional observations from a re-analysis of the deposited data

How the results depend on the processing

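No member was called under any of the 15 alternatives run, in either direction, and the median log2 fold change of the members stayed negative. Leaving out 1 library at a time gave medians between -0.17 and -0.095, and the blocks read from the deposited fold changes, an alternative added after seeing the data, gave -0.22. The number of genes called over the whole table, 52 in the main analysis, depended more on the processing. It was 33 on the deposited FPKM, 380 with library weights, 17 with the replicate block and 215 with the blocks read from the deposited fold changes. Leaving out 1 library gave between 9 and 158 calls: 158 without control 2, 15 without control 1, 19 without control 3, and 12, 9 and 13 without mutants 1, 2 and 3. The number of members at an unadjusted p under 0.05, 1 in the main analysis, ranged from 0 to 10 and was largest with library weights. Ddit4 had a log2 fold change of -0.10, between -0.28 and 0.041 when 1 library was left out, positive without control 3, and 0.00089 with the blocks read from the deposited fold changes, and the cause was not tested. Whether the replicate numbers pair the libraries is not known: same-numbered libraries deviated from their group means with correlations of 0.00081, -0.098 and 0.309. The replicate block called no member, but neither did any other alternative, so that count cannot decide it. With the replicate block, 5 members stood at an unadjusted p under 0.05 by limma, against 1 in the main analysis. The share of all genes at that level was not taken for the replicate block or for library weights. Their counts of members therefore have no background beside them and are not read as a result. With 3 libraries a group, limma did not tell the differences of these genes from the spread, with control 2 or without it. The authors' deposited table called 1 of them higher and 4 lower.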
